A study of Mus musculus with 16 samples.

Results

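Succinate dehydrogenase was described here through its 4 subunit genes (Sdha, Sdhb, Sdhc and Sdhd) and its 4 assembly factor genes (Sdhaf1, Sdhaf2, Sdhaf3 and Sdhaf4), 8 of the 21883 nuclear protein-coding genes of the RefSeq gene table. The genes were chosen by name, and every region of the 3 deposited lists that lay within 30000 bp of their bodies was taken, 52 regions in all. The data are chromatin immunoprecipitation sequencing (ChIP-seq) of 2 immortalized mouse embryonic fibroblast lines at day 16 of doxycycline at 1 µg/mL. The experimental line was R26M2rtTA/+;TetOcre;Sdhcfl/fl and the control line R26M2rtTA/+;TetOcre;Sdhcfl/wt. Both lines therefore carried the doxycycline-dependent transactivator, the Cre transgene and at least 1 floxed Sdhc copy, and both received doxycycline. Each line gave 2 input samples and 2 samples for each of 3 antibodies, against succinyllysine, a lysine acylation whose succinyl group comes from succinyl-CoA, against H3K4me3, found at active gene starts, and against H3K27me3, the mark left by Polycomb in repressed chromatin.

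The 4 ChIP samples of an antibody share 1 list of start and end positions, so no value per sample, replicate error or depth could be given, and the 2 lines could not be told apart. Which bases lie between the loxP sites, how completely they were removed, and whether each line is a single clone was not given in the sources used here. Of 10 fibroblast marker genes, 9 had H3K4me3 at a gene end, and Thy1 did not. H3K4me3 also lay at an end of 2 of 5 epithelial, 2 of 5 haematopoietic, 0 of 3 endothelial and 1 of 3 pluripotency markers. The share of all protein-coding genes was 55.6%. Among these markers, the pluripotency gene Sox2 and the epithelial gene Epcam had both H3K4me3 and H3K27me3 at an end.

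Succinate dehydrogenase, or complex II of the respiratory chain, sits in the inner mitochondrial membrane, oxidises succinate to fumarate in the tricarboxylic acid cycle and passes the electrons to ubiquinone. Sdha carries the flavin and the succinate site, Sdhb carries the iron-sulphur clusters, and Sdhc and Sdhd anchor the enzyme in the membrane and form its ubiquinone site. Sdhaf2 and Sdhaf4 act on Sdha, in attaching the flavin and in holding the flavinated subunit, while Sdhaf1 and Sdhaf3 serve the iron-sulphur subunit Sdhb. Loss of the enzyme raises succinate, and its subunit genes are tumour suppressors of paraganglioma in humans.

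The starts of these genes are shown first because H3K4me3 lay over all of them that could be placed. A start and promoter sequence (RefSeq, GRCm38.p6, the assembly that mm10 is built from) was matched for 7 of the 8 genes, the exception being Sdhc. Each window of 300 bases around a start, 250 before and 50 after, lay wholly inside H3K4me3 (abutting regions joined) in 7 of 7 genes, against 45.8% of the 21262 promoter windows of protein-coding genes, and touched no succinyllysine or H3K27me3 region. A gene can have several such windows. Counted once per gene, the outermost start lay inside H3K4me3 in 53% of 17491 genes. For Sdha, Sdhd and Sdhaf2, which share a start region with a gene of the other strand, the stretch from the base after that gene's listed start to 30 bases into the member is printed. For the others 150 bases before the start and 30 from it are printed. All run 5′ to 3′ on the strand of the named gene, and capitals mark matches to the NRF1-type letters GCGCANGCG or the ETS-type letters CCGGAAG on either strand.
Sdha, chr13:74350211-74350316, minus strand: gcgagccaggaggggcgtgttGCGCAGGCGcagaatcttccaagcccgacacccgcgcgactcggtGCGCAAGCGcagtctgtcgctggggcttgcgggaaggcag
Sdhd, chr9:50603820-50603900, minus strand: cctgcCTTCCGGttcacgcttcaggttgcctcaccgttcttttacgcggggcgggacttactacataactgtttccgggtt
Sdhaf2, chr19:10525180-10525243, minus strand: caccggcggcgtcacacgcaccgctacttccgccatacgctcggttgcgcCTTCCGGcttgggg
Sdhb, chr4:140961121-140961300, plus strand: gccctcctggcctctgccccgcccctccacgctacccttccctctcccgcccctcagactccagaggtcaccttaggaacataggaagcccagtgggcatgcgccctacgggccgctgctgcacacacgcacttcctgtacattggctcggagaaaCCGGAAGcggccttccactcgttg
Sdhaf1, chr7:30322346-30322525, minus strand: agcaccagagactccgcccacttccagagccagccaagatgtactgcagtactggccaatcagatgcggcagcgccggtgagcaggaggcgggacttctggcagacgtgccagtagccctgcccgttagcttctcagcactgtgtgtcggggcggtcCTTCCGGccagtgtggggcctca
Sdhaf3, chr6:6955868-6956047, plus strand: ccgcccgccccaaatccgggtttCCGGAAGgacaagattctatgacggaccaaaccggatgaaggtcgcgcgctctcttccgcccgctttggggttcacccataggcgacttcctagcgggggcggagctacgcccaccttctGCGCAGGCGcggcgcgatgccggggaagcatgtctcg
Sdhaf4, chr1:24005611-24005790, minus strand: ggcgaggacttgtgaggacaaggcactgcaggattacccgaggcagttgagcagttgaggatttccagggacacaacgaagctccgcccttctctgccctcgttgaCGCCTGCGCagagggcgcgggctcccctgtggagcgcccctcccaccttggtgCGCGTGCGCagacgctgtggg

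NRF1 and the ETS factor GABP are known as activators of nuclear genes for mitochondrial enzymes. In the windows of 300 bases, the NRF1-type letters occurred 3 times at Sdha, 2 times at Sdhaf4 and 1 time each at Sdhd and Sdhaf3. The ETS-type letters occurred 2 times at Sdhaf2 and 1 time each at Sdhb, Sdhd, Sdhaf1 and Sdhaf3. Each of the 7 genes thus had at least 1 match of either kind, and no NRF1-type match overlapped an ETS-type match. The NRF1-type match of Sdhd, and 1 of the matches at Sdha and at Sdhaf2, lay beyond the start of the partner gene and so outside the printed stretch. Across all 21262 promoters, 18.4% had either match, 8.58% the NRF1-type and 11.6% the ETS-type. Among the 11507 promoters that touched H3K4me3, 30.4% had either. The letters were chosen after the promoter sequences were seen, so the matches at the 7 genes cannot be read as enrichment over these shares. These matches are letters in a window and no binding was measured. The promoters were also searched for GGGCGG, found in 6 of the 7 genes (all but Sdha), in 46.2% of promoters and in 69.2% of those touching H3K4me3, for CCAAT (Sdha, Sdhb and Sdhaf1, against 38.2%), for TATAAA (Sdhaf3 alone, after its start, against 12.6%) and for GATGGCGG, found in 0 of the 7 and in 2.27% of promoters. CpG pairs per window ran from 15 at Sdhb to 44 at Sdhaf2, with a median of 13 over all promoters and 22 over those touching H3K4me3.

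H3K4me3 was listed within 1000 bp of a gene end at all 8 genes, against 55.6% of all protein-coding genes. Within 30000 bp of the body it was also found at 8 of 8 genes, but 77% of all genes had it there. For the catalytic subunit, Sdha (gene 66945, chr13:74322255-74350240), the region was 5400 bp wide (74347501 to 74352900). For Sdhb (gene 67680, chr4:140961271-140979198) it was 3300 bp wide and an 800 bp region abutted it inside the gene. Sdhd (gene 66925, chr9:50596340-50603849) had a 5200 bp region. The upper end of Sdhc (gene 66052, chr1:171129157-171150640) had a 4000 bp region. The subunit genes thus spanned widths of 3300 to 5400 bp.

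The assembly factors reached lower widths. Sdhaf2 (gene 66072, chr19:10500512-10525209), whose product is needed for the flavin of Sdha, had 5400 bp, as wide as Sdha itself. Sdhaf3 (gene 71238, chr6:6955971-7039661) had 2800 bp with a 600 bp region abutting it before the gene. Sdhaf1 (gene 68332, chr7:30321409-30322375) had 2300 bp, which covered the whole 967 bp gene, so that both of its ends counted as marked. Sdhaf4 (gene 68002, chr1:23995939-24005640) had 2100 bp, and a second region of 500 bp lay further inside the gene. The median over the 8 genes was 3650 bp, beside 3500 bp over the 12160 genes with H3K4me3 at an end (quartiles 2500 and 4600 bp). In rank, the 8 genes lay between the 17.6 percentile (Sdhaf4) and the 84.3 percentile (Sdha and Sdhaf2) of those genes.

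**Figure D1:**
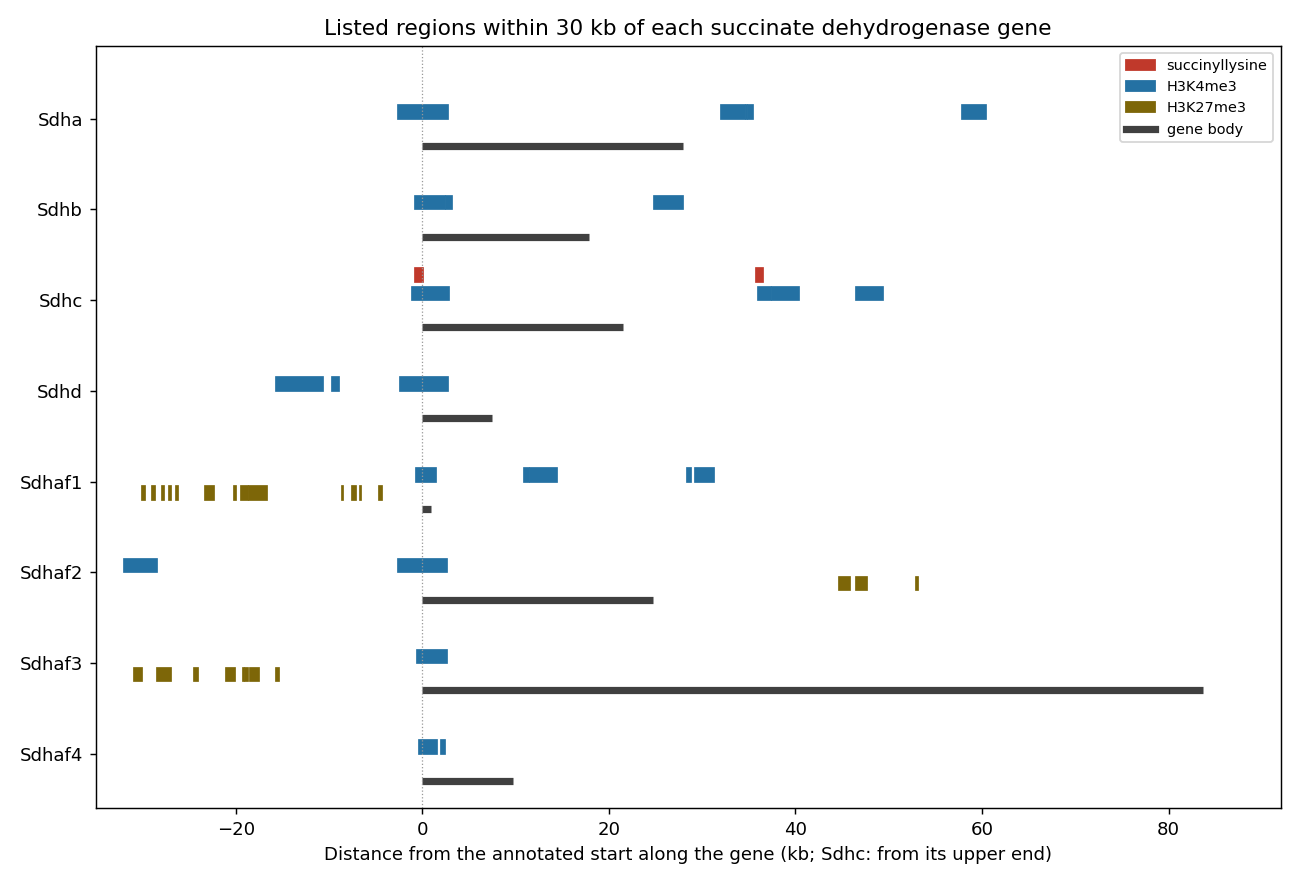
Listed regions within 30 kb of the 8 genes. The horizontal axis is the distance in kb from the annotated start, with the gene running to the right (for Sdhc, from its upper end with the body to the right); coloured boxes are the regions of each list and dark bars are the gene bodies. All 8 genes have H3K4me3 over position 0, succinyllysine appears near Sdhc alone, and H3K27me3 appears near Sdhaf1, Sdhaf2 and Sdhaf3.

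H3K4me3 ran further before the start where the start was shared. Sdha starts 77 bp from Ccdc127, a coiled-coil domain gene. Sdhd starts 52 bp from Timm8b, which encodes a chaperone of mitochondrial protein import. The listed start of Sdhaf2 is 35 bp from that of Cpsf7, which encodes a subunit of the mRNA cleavage factor, although the gene bodies as annotated are only 13 bp apart. The printed Sdhaf2 stretch therefore reaches into the annotated body of Cpsf7. All 3 partners run the opposite way, and in each pair 1 H3K4me3 region covered both starts. It extended 2660 bp before the start at Sdha, 2451 bp at Sdhd and 2691 bp at Sdhaf2. At the other 4 genes with a listed start, which had no opposite protein-coding start within 1000 bp, the block of abutting regions extended 870 bp (Sdhb), 825 bp (Sdhaf1), 717 bp (Sdhaf3, from its listed start at 6956018, which lies inside the annotated body) and 460 bp (Sdhaf4). The 2 sets did not overlap on this side.

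After the start the sets were mixed. The block extended 2739, 2748 and 2708 bp into Sdha, Sdhd and Sdhaf2, and 3229, 1474, 2682 and 1639 bp into Sdhb, Sdhaf1, Sdhaf3 and Sdhaf4. The same asymmetry was present over all genes and is not particular to these. Of 17491 genes with a listed start, 8.04% had an opposite protein-coding start within 1000 bp before it. For those of them with H3K4me3 over the start, the block extended a median of 2644 bp before it (quartiles 1870 and 3265) and 2562 bp after it. Genes with no such partner had medians of 886 bp before (quartiles 503 and 1403) and 2520 bp after the start. The start itself lay inside H3K4me3 in 93.2% of genes with a partner and 49.4% of those without. At Sdhc, whose start is not listed in the table, the region ran 2839 bp into the body from the upper end and 1160 bp beyond it, between the 2 sets on the outer side.

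**Figure D2:**
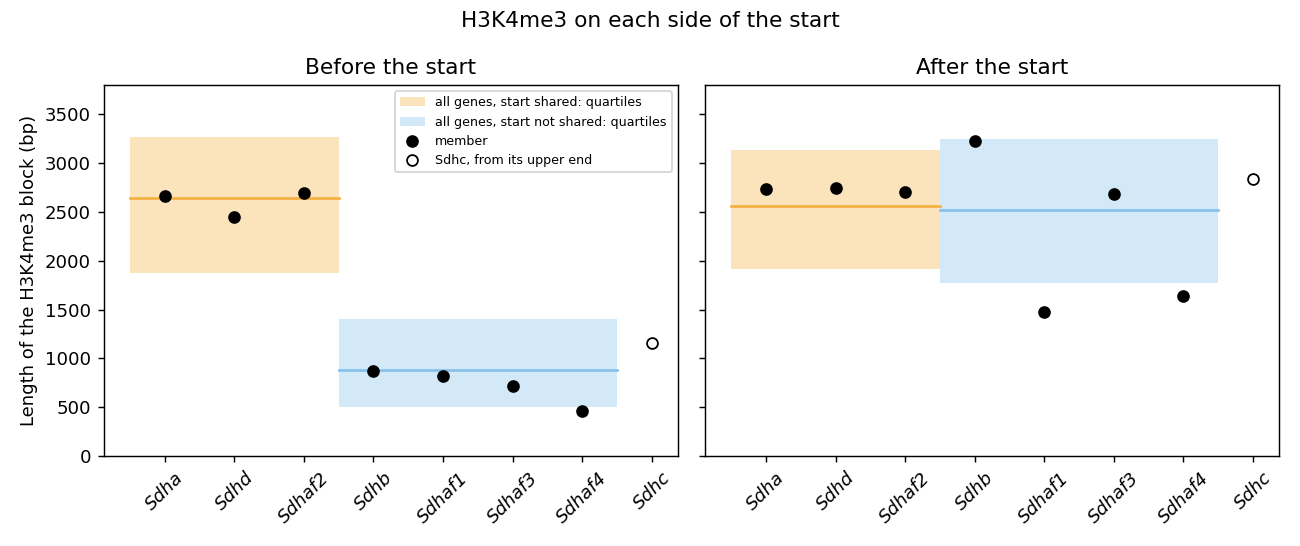
Length in bp of the H3K4me3 block before (left) and after (right) the annotated start of each gene. Points are the members, shaded bands and lines are the quartiles and medians of all genes whose start is or is not within 1000 bp of an opposite protein-coding start, and the open point is Sdhc measured from its upper end. The 3 genes with shared starts sit at 2451 to 2691 bp before the start and the other 4 at 460 to 870 bp.

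Succinyllysine was listed at a gene end for 1 of the 8 genes, Sdhc, against 5.42% of all protein-coding genes. With 8 genes, a count of 1 is no basis for setting them apart from that share. The same gene was the only member with succinyllysine within 30000 bp, where the share of all genes was 23.6%. The region at Sdhc spanned chr1:171150601-171151500, 900 bp, wider than 77.9% of the succinyllysine list. Only 40 of its 900 bases (4.44%) lay in the Sdhc body, and 860 bases lay beyond its upper end, so that its position alone does not assign it to Sdhc. The region sat wholly within the H3K4me3 region, 2800 bp from its edge inside Sdhc and 300 bp from its outer edge. No succinyllysine region lay elsewhere in the 21484 bp body of Sdhc, and no H3K27me3 region lay in it. Both lines carried floxed Sdhc with Cre, so in the floxed bases a missing region cannot be told apart from missing DNA.

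On the lower side, Cfap126 (chr1:171113912-171126956), a gene for a protein of motile cilia, ends 2200 bp from Sdhc and runs toward it. A second succinyllysine region of 900 bp (171114101 to 171115000) lay inside Cfap126 just after its start, 14156 bp from Sdhc, and 700 of its bases (77.8%) overlapped an H3K4me3 region of 1600 bp. That H3K4me3 region abutted another of 2900 bp that covered the tRNA gene n-TVcac6. A 3000 bp H3K4me3 region further out covered the tRNA genes n-TLcag9, n-TDgtc5, n-TGtcc3 and n-TEctc6. All 5 tRNA genes within 30000 bp thus lay in H3K4me3, as did 60.3% of 408 tRNA genes of the table. On the other side Pcp4l1, 22623 bp away, had a 3000 bp H3K4me3 region at an end and no other mark. The noncoding gene Gm46172, which lies within Sdhc, had no mark at its ends.

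The other 7 genes had no succinyllysine within 30000 bp. The nearest region was 36391 bp from Sdhaf2, 76454 bp from Sdha and 79339 bp from Sdhaf3. It was 147451 bp from Sdhd, 230725 bp from Sdhaf1, 259970 bp from Sdhb and 271838 bp from Sdhaf4. The median over all protein-coding genes was 137632 bp (quartiles 33872 and 367272), so these 7 distances lay between the quartiles of all genes. The lists hold no signal heights, so succinyllysine below the authors' threshold at these genes cannot be seen.

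H3K27me3 was listed at an end of 0 of the 8 genes, against 13.6% of all protein-coding genes, and touched none of their bodies. Within 30000 bp it was found at 3 of 8, the assembly factors Sdhaf1, Sdhaf2 and Sdhaf3, against 42.9% of all genes. With 8 genes, neither count is a basis for setting them apart from those shares. Sdhaf1 had the closest H3K27me3, a 400 bp region 4325 bp before its start. It was the first of 13 regions within 30000 bp on that side, 7600 bp in sum and up to 2100 bp wide, of which 5 lay in the noncoding gene 4930479H17Rik. The next protein-coding gene beyond them, Lrfn3, which encodes a synaptic adhesion protein, had H3K27me3 of 1900 bp and H3K4me3 of 2500 bp at its ends.

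The 8 regions near Sdhaf3 lay before its start, 15270 to 29970 bp away and 200 to 1600 bp wide, in the interval that ends at Dlx5, a homeobox gene of limb and bone 73902 bp away. Near Sdhaf2, 3 regions of 300, 1300 and 1300 bp lay 19911 to 28111 bp beyond its far end, and 2 of them were inside Ppp1r32. The nearest H3K27me3 region was 41470 bp from Sdhb, 50256 bp from Sdhc, 53560 bp from Sdha, 106939 bp from Sdhd and 123760 bp from Sdhaf4, beside a median of 46135 bp for all genes.

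**Figure D3:**
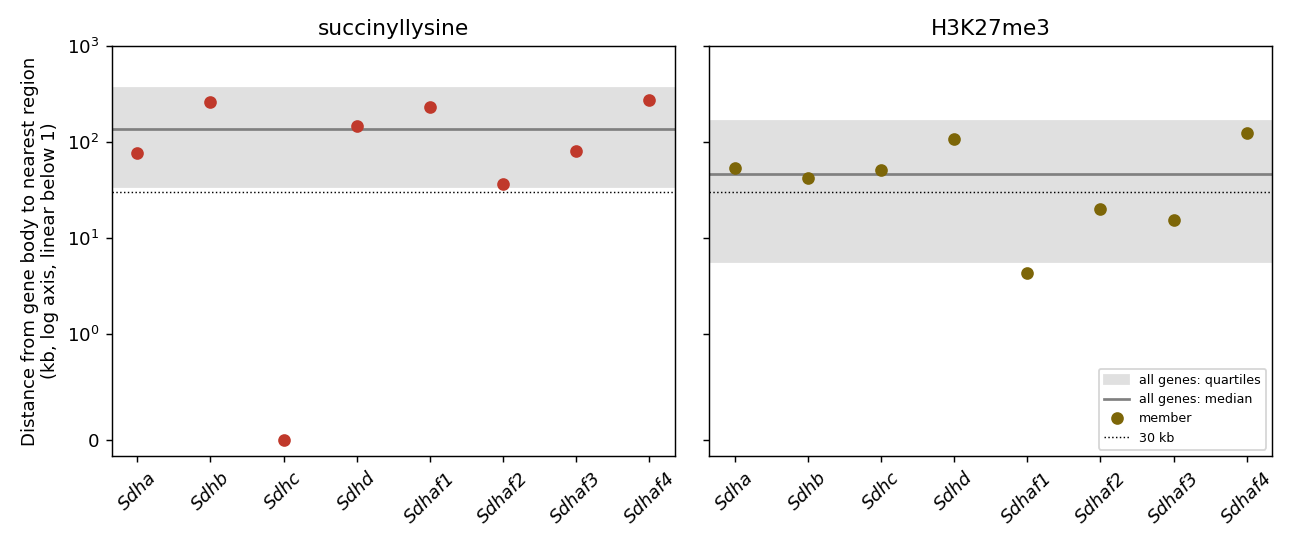
Distance in kb from each gene body to the nearest succinyllysine (left) and H3K27me3 (right) region, on a log axis that is linear below 1 kb. Grey bands and lines are the quartiles and medians of all protein-coding genes, and the dotted line marks 30 kb. Sdhc sits at 0 for succinyllysine, and Sdhaf1 is the closest to H3K27me3 at 4325 bp.

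Among 20 protein-coding neighbours described within 30000 bp of the 8 genes, 15 had H3K4me3 at an end, 2 succinyllysine and 0 H3K27me3. Over all protein-coding genes the shares were 55.6%, 5.42% and 13.6%. Counts this small do not set the neighbours apart for succinyllysine or H3K27me3. The H3K4me3 regions at the starts of Sdha, Sdhd and Sdhaf2 also reached Ccdc127, Timm8b, Nkapd1 and Cpsf7. The 15 neighbours are therefore not independent of the members. The 2 with succinyllysine were Cfap126 beside Sdhc and Ahrr, a repressor of the aryl hydrocarbon receptor whose nearer end is 29923 bp from Sdha. The 1400 bp region of Ahrr was at its far end. Next to Sdhb, the lysosomal ATPase gene Atp13a2 (7017 bp away) had a 3200 bp H3K4me3 region, while Padi2 (8684 bp away), a peptidylarginine deiminase gene, had no mark at its ends. On the far side of Sdhd, the cytokine gene Il18 (14498 bp away) had no mark at its ends. Beside Sdhaf1, Syne4 (2363 bp away) had no mark at its ends. Sdhaf2 had Ppp1r32, 9060 bp away and without a mark at its ends. Beside Sdha, Pdcd6 (4928 bp away) had H3K4me3 of 2700 bp. Sdhaf4 had Fam135a, 5117 bp away, with H3K4me3 of 3500 bp. Beyond 30000 bp, the nearest gene on the lower side of Sdhaf4 was Smap1 with 2900 bp of H3K4me3. Sdhaf3 had Dlx5 with 2400 bp of H3K4me3 on the lower side. On its other side the nearest protein-coding gene was Tac1, 515399 bp away, with H3K27me3 of 1000 bp.

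The pathway around the enzyme was described with 4 lists of 45 genes, of which 40 had H3K4me3 at an end, 4 succinyllysine and 2 H3K27me3. Shares over all protein-coding genes were 55.6%, 5.42% and 13.6%, in the same order. With so few genes, the succinyllysine and H3K27me3 counts are no basis for setting any of these lists apart. In the rest of the tricarboxylic acid cycle, 16 of 17 genes had H3K4me3 at an end and 0 had H3K27me3. The exception was Idh2, a mitochondrial isocitrate dehydrogenase, where an H3K4me3 region lay in the body but not at the ends. Succinyllysine lay there at 1 gene, Dld, which encodes the shared dihydrolipoamide dehydrogenase, as a 500 bp region 229 bp outside the gene body. The other dehydrogenases that feed ubiquinone had H3K4me3 in 7 of 8 (all but Chdh, a choline dehydrogenase) and succinyllysine in 1 of 8, namely Etfb, a subunit of the electron transfer flavoprotein (900 bp, 571 bp outside the body). Gpd2 had succinyllysine in its body but not at its ends.

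The genes for iron-sulphur cluster synthesis and delivery, on which Sdhb depends, had H3K4me3 in 14 of 14, H3K27me3 in 0 and succinyllysine in 2. These were Isca1, an assembly protein (600 bp, 111 bp outside the body), and Hspa9, the mitochondrial chaperone mortalin (1800 and 1300 bp). Iba57 had succinyllysine in its body but not at its ends. The median of the widest H3K4me3 region among marked genes was 3550 bp in the cycle list, 3000 bp in the ubiquinone list, 3750 bp in the iron-sulphur list and 2100 bp in the list of succinate carriers and enzymes, beside 3650 bp for the 8 genes. Of the carriers and enzymes of succinate, 3 of 6 had H3K4me3 and 0 had succinyllysine. The 3 were the mitochondrial dicarboxylate carrier gene Slc25a10, the succinate semialdehyde dehydrogenase gene Aldh5a1 and the citrate carrier gene Slc13a5. H3K27me3 lay at Slc13a5 and at the dicarboxylate carrier gene Slc13a3, with regions of up to 5100 and 3600 bp. Neither histone mark was listed at the ends of Sucnr1, the succinate receptor gene, or of Abat, which encodes the transaminase of GABA. H3K27me3 did lie in the body of Abat, away from its ends.

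**Figure D4:**
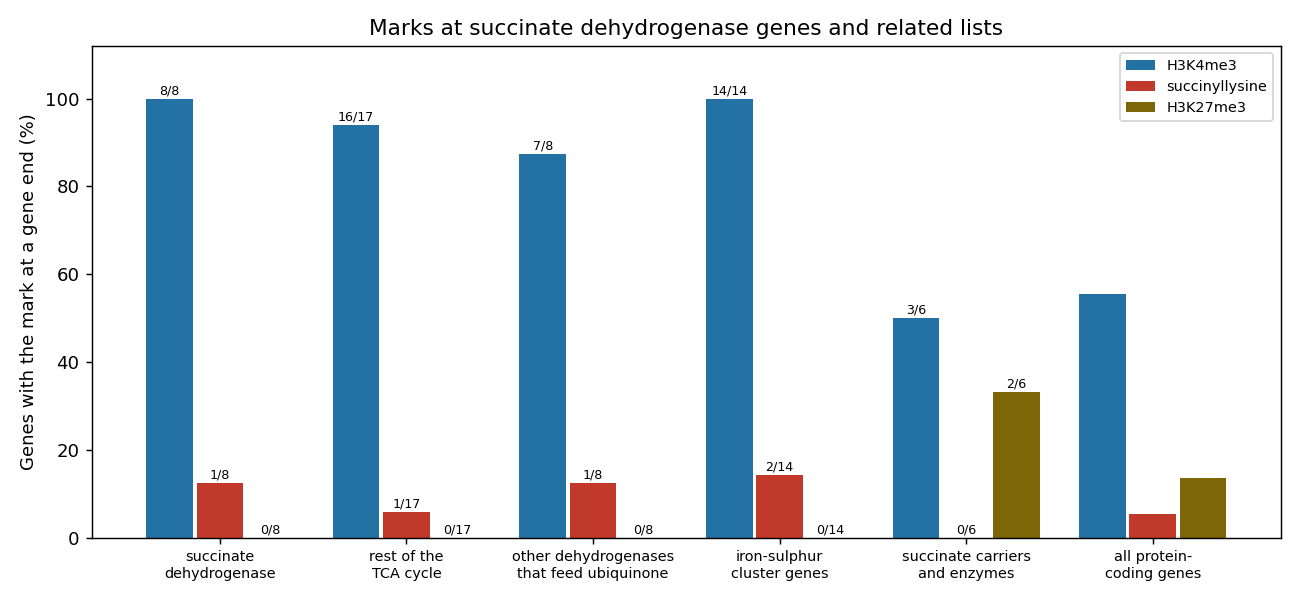
Percent of genes with each mark within 1000 bp of a gene end, for the 8 succinate dehydrogenase genes, the 4 related lists and all protein-coding genes; labels above bars give marked over all genes of the list, and bars start at 0. H3K4me3 reaches 8 of 8 and H3K27me3 0 of 8 for succinate dehydrogenase, and succinyllysine reaches 1 of 8.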

How the data were processed

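The submitters' processing notes name Bowtie2 2.2.3 and mm10. How peaks were called, at which threshold, against which input and on which pool of samples was not given in the sources used here. The authors deposited 3 lists of region positions, with no score or other measurement. All starts lay 1 bp above a multiple of 100 and all ends on one, and positions were therefore taken as 1-based. Depth is unknown.

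Genes and starts came from RefSeq tables for GRCm38.p6 and mitochondrial DNA was left out. A mark was counted at a gene if any of its regions overlapped, by 1 bp or more, the 1000 bp on each side of either gene end. Regions that abut were joined for block lengths. A shared start had an opposite protein-coding start within 1000 bp before it, where starts are those of the promoter table, which need not be the end of the gene body, and the outermost was taken if it lists several. The shares of all genes have exact Clopper-Pearson 95% intervals, for counting error only, of 5.13 to 5.73% for succinyllysine, 54.9 to 56.2% for H3K4me3 and 13.1 to 14% for H3K27me3 at gene ends. No test was made, because each list is a single observation. The members and lists were chosen with earlier results of these data known, and the motifs after the promoter sequences were seen. Named genes were the 8 members, the neighbours of Sdhc (1 gene is not reported here), the nearest genes or marked neighbours of the others, and members of the 4 pathway lists with succinyllysine or a mark state found in 3 genes or fewer. Alternatives were other windows and flanks, midpoints, wider regions, merged regions, annotated starts and whole genes. The counting code was tested on simulated data (2000 genes, 0 disagreements). Python 3.11.15, pandas 2.3.3 and scipy 1.17.1 were used.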

Additional observations from a re-analysis of the deposited data

How the results depend on the processing

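In 61 cases another window, flank, overlap rule or filter left the count or share within 1.5 times the reported value. Using annotated starts alone gave 0 members with succinyllysine, since no start is listed for Sdhc. A flank of 50000 bp gave 2 members with succinyllysine (Sdhaf2 added), and one of 10000 bp gave 1 member with H3K27me3 (Sdhaf1). Over all protein-coding genes, succinyllysine reached 10.1% with whole genes and 14.9% with a flank of 10000 bp, and H3K4me3 at gene ends 36.9% with region midpoints. With regions as listed and not joined, an alternative chosen after seeing the data, H3K4me3 before the start of Sdhaf3 shortened to 117 bp. The gap between shared and unshared starts did not change, since its edges stayed at 870 bp (Sdhb) and 2451 bp (Sdhd). The succinyllysine region at Sdhc stayed 900 bp wide when regions within 1000 bp were merged. No paired analysis was possible because the lists hold no values per sample, and for the same reason leaving out replicates was not run. Depth is unknown, so regions under the authors' threshold cannot be counted.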

Other observations

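Abutting regions, with 0 bases between them, occurred within 30000 bp of Sdha, Sdhb, Sdhc, Sdhaf1 and Sdhaf3 in the H3K4me3 list and of Sdhaf1 and Sdhaf3 in the H3K27me3 list. Over the whole lists, 13.9% of H3K4me3, 23.3% of H3K27me3 and 7.39% of succinyllysine regions abutted another region of the same list. What set these boundaries was not given in the sources used here.

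The side of the gene end on which succinyllysine lay at Sdhc, Dld, Etfb and Isca1, with its midpoint outside the body, was common in the list but not general. At Hspa9 the 1800 bp region had 1651 bp inside the body, and the 1300 bp region lay outside it. At H3K4me3-marked gene ends, 629 of 1152 succinyllysine regions (54.6%), counted once per gene end, had their midpoint outside the gene. Around starts inside H3K4me3 without an opposite start within 1000 bp, 433 of 710 midpoints (61%) lay before the start, and with such a start 48 of 102 (47.1%) did. Of the 10888 succinyllysine regions in the whole list, 1840 touched H3K4me3. Of those 1840, 1090 (59.2%) lay wholly inside 1 H3K4me3 region, as at Sdhc.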
